A study of Mus musculus with 54 samples.

Results

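Livers of wild-type (WT) mice harvested at ZT20 were set against WT livers harvested at ZT8, 12 h apart on the daily cycle. The comparison used 6 of the 54 libraries of a study of the mouse liver clock, 3 at ZT20 and 3 at ZT8, taken by their genotype and harvest-time labels. The comparison itself was chosen with earlier results of these data known. ZT counts hours from lights on, so ZT20 fell in the dark and ZT8 in the light of a 12 h light and 12 h dark schedule. All 6 livers came from female C57BL/6J mice aged 8 to 12 weeks that ate normal chow freely, and the labels name no engineered allele for WT. The study also held BMAL1 knockout mice (KO) and Liver-RE mice, which lack BMAL1 except where it was reconstituted in the liver with the BMAL1-stop-FL allele, with 3 libraries for each of 3 genotypes and 6 harvest times. The same sex, strain, age range and feeding are given for these genotypes. The driver of the reconstitution is not given in the sources used here. Values are FPKM, a read level per gene scaled by transcript length and library depth, and 11749 genes with a mean of at least 0.5 FPKM over the 6 libraries were tested.

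The circadian clock of a cell is a loop of transcription. BMAL1, encoded by Arntl, pairs with CLOCK or NPAS2 and drives genes through E-boxes, among them the Per and Cry genes, whose proteins hold that drive back. A second loop runs through response elements for ROR receptors (ROREs), where ROR proteins activate Arntl and the REV-ERB receptors NR1D1 and NR1D2 repress it. Another set of genes, read through D-boxes, is activated by DBP, TEF and HLF and repressed by NFIL3. In liver this machinery times much of sugar, lipid, bile acid and xenobiotic metabolism.

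The promoters of 5 genes that were called between the harvest times and hold an element of these loops are shown, 3 with a RORE, 1 with an E-box and 1 with D-boxes. They were chosen among the called genes with such a match, to show each element. The windows are RefSeq's, from 250 bases before to 50 bases after each gene's start, on GRCm38.p6 (the files' mm10 assembly). They run 5′ to 3′ on the gene's strand with the element in capitals. The RORE core TAGGTCA, searched on both strands, lay in the windows of Arntl, Nfil3 and Slc45a3, all called higher at ZT20 as set out below. It was at bases 31 to 37 after the start of Arntl (plus strand, chr7:113207261-113207560), from -12 to -6 before that of Nfil3 (minus strand, chr13:52980990-52981289, in the opposite orientation, so printed as TGACCTA) and from -116 to -110 before that of Slc45a3 (plus strand, chr1:131970359-131970658). The E-box CACGTG lay from -127 to -122 before the start of Tef (plus strand, chr15:81802423-81802722). The D-box TTATGTAA lay from -205 to -198 and from -158 to -151 before the start of Per3 (minus strand, chr4:151044616-151044915). Tef and Per3 were called lower at ZT20. The letters shown in capitals overlapped no other searched motif. Arntl and Slc45a3 have 2 listed windows each, of which 1 held the core, and both windows of Tef held the E-box.
Arntl: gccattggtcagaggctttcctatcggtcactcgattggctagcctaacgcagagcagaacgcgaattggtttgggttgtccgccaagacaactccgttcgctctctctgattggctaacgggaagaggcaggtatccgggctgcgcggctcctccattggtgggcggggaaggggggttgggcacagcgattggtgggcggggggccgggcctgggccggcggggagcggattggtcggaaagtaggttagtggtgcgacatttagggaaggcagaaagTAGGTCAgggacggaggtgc
Nfil3: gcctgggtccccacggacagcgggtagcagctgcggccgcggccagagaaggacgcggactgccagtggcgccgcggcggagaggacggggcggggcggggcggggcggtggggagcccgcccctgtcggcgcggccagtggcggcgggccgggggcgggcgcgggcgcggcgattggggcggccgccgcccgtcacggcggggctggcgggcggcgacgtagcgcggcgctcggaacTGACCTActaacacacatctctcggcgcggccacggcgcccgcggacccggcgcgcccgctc
Slc45a3: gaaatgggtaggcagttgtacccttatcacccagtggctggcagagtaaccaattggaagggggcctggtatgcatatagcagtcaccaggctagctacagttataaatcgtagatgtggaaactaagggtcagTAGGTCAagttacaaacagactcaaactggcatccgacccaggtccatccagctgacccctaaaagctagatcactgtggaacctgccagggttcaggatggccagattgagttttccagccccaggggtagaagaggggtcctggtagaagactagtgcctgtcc
Tef: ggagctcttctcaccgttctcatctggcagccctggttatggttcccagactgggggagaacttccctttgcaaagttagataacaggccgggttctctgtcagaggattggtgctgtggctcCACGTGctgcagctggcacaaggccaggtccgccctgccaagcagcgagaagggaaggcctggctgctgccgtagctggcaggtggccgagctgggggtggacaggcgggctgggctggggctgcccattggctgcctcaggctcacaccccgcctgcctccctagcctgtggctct
Per3: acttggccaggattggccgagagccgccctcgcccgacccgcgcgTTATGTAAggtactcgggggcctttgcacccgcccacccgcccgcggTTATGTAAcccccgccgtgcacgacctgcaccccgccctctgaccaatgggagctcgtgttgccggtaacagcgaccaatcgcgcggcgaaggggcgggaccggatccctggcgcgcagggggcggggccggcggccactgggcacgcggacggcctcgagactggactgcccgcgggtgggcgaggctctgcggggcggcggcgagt

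Such matches were also found widely. The RORE core was in 2.61% of all 32851 promoter windows, the E-box in 7.15%, and the D-box, searched as TTATGTAA and TTACGTAA, in 1.06%. Counted per gene, as the called genes are below, the shares of 27025 genes were 2.97% for the RORE core, 8.09% for the E-box and 1.23% for the D-box. Of the 27 genes called higher at ZT20, as defined below, 20 had a window, and 3 of these held the RORE core and 3 the E-box. Of the 35 genes called lower, 26 had a window, of which 1 held the RORE core (Rnf152), 4 the E-box and 1 the D-box (Per3). A match describes the letters of the window only.

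Before any comparison, 1 library stood apart from its label. Over 26 clock genes, the library labelled ZT8 replicate 2 differed from the mean of the other ZT8 libraries by 1.73 (root mean square of log2 differences), and from the mean of the 3 ZT20 libraries by 0.352. Its distance was 0.59 to WT livers of ZT0, 1.07 to ZT4, 1.5 to ZT12 and 0.712 to ZT16. ZT8 replicates 1 and 3 differed from each other by 0.222 and from ZT20 by 1.63 and 1.66. Its clock genes thus lay nearest to ZT20. Each result is therefore given with all 6 libraries and without that library. Leaving it out was decided from clock genes, so the clock genes' own values without it, p-values and calls included, are conditional on that choice and describe the remaining libraries. This holds for the comparisons with KO and Liver-RE too. The 12 WT libraries of the other harvest times, which share no library with this comparison, give the independent values.

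The depth, estimated from the steps between low values, was 33.5 M to 35.9 M reads at ZT20 and 26.6 M to 38.5 M reads at ZT8. Albumin took 9.18% to 12.2% of the summed FPKM at ZT20 and 9.17% to 10.4% at ZT8, and hepatocyte markers summed to 52980 to 71300 FPKM at ZT20 and 58460 to 66700 FPKM at ZT8, with none of the 14 in the table at 0. In whole liver, fewer cells of a type and less RNA per cell cannot be told apart. Among the summed marker levels of other cells, those of cholangiocytes did not overlap, at 20.3 to 40.1 FPKM at ZT20 and 13.8 to 17.8 FPKM at ZT8 over 6 of 6 listed markers, none of them at 0. Of these 6 markers 3 passed the FPKM filter, and 1 of the 3 had groups apart with all 6 libraries, so the sum does not speak for each marker. The summed erythroid levels did not overlap either, at 9.20 to 9.75 FPKM at ZT20 and 5.45 to 7.28 FPKM at ZT8 over 4 of 7 listed markers, of which 1 was at 0 in 1 ZT20 library and in 2 ZT8 libraries. Nearly all of that sum was 1 gene, Alas2, with 9.03, 8.58 and 8.98 FPKM at ZT20 and 5.40, 7.07 and 5.84 FPKM at ZT8. Over the 10 marker lists, 0 members passed the test in either direction with or without the library described above, and the part of these cells in the results was not tested. ZT20 replicate 1 had the lowest correlation with the other libraries, 0.9636 to 0.9756 in log2(FPKM + 1) over all tested genes, where ZT8 replicates 1 and 3 reached 0.992 with each other.

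The question here is which liver transcripts differ between ZT20, in the dark phase, and ZT8, in the light phase. With all 6 libraries, limma called 0 genes higher at ZT20 (0% of those tested) and 0 lower (0%), the smallest adjusted p being 0.128, while 1642 genes had an unadjusted p under 0.05. Without ZT8 replicate 2, 27 genes were higher at ZT20 (0.23%) and 35 lower (0.298%), and 2163 had an unadjusted p under 0.05, 596 higher and 1567 lower. Of these 62 genes, 54 differed at least 2-fold on the log2(FPKM + 1) scale. Clock genes led both directions: Arntl had the highest log2 fold change of the called genes and Dbp the lowest. For 56 of the 62, ZT8 replicate 2 lay nearer to the ZT20 mean than to the mean of the other ZT8 libraries, and for 6 nearer to ZT8, where over all genes it lay nearer to ZT20 for 6134 of 11749. Leaving that library out favours calls of genes on which it departs from its group. The split of directions depended on the scaling: 30 higher and 24 lower with quantile normalization, 34 higher and 17 lower after rescaling without the 20 highest genes. The count also moved with the filter, the spread and single libraries. It was 8 with no filter on low values, 10 with the replicate number as a block and 767 with the spread taken from 17 WT libraries. It was 496 without ZT20 replicate 1, 92 without ZT20 replicate 2, 8 without ZT20 replicate 3, 1 without ZT8 replicate 1 and 2 without ZT8 replicate 3, where the last 2 leave a lone ZT8 library that is assumed to vary like the ZT20 ones.

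**Figure D1:**
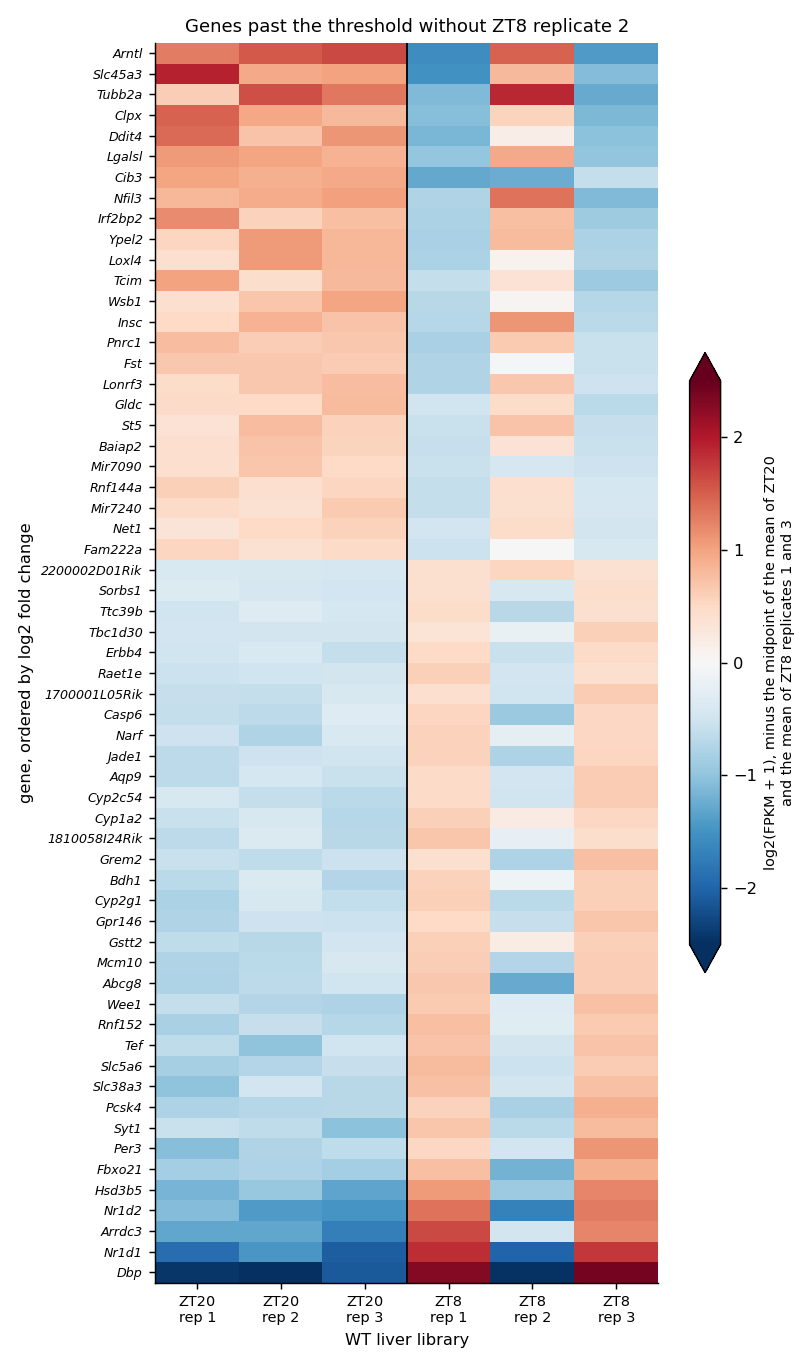
Heat map of 60 of the 62 genes called without ZT8 replicate 2, with a column for each WT library and colour for log2(FPKM + 1) relative to the midpoint of the ZT20 mean and the mean of ZT8 replicates 1 and 3. The column of ZT8 replicate 2 has the colours of the ZT20 columns for most genes, with Cib3 and 2200002D01Rik among the 6 on the side of ZT8.

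Of the 3 genes of the activating arm, Arntl was past the threshold once ZT8 replicate 2, left out for its clock genes, was set aside. All 3 had higher levels in each ZT20 liver than in ZT8 replicates 1 and 3, as did 11.6% of all tested genes. Arntl, the BMAL1 gene, had 9.06, 11.03 and 12.1 FPKM at ZT20, against 0.414, 10.6 and 0.563 FPKM in ZT8 replicates 1, 2 and 3. The groups overlapped only through ZT8 replicate 2, which sat among the ZT20 values. The log2 fold change was 1.98 ± 0.74 (SE, n = 3 against 3; limma adjusted p = 0.332) with all libraries and 2.97 ± 0.15 (n = 3 against 2; adjusted p = 0.00398) without that library, where the ratio of the mean FPKM values was 21.9. Clock, which encodes BMAL1's partner, had 11.8, 8.96 and 10.01 FPKM at ZT20, against 5.11, 9.58 and 5.004 FPKM at ZT8. Npas2, an alternative partner, had 0.404, 1.56 and 0.737 FPKM at ZT20, against 0.0791, 0.756 and 0.104 FPKM at ZT8. In both genes ZT8 replicate 2 again lay inside the ZT20 range, and neither passed the threshold with or without that library. Without ZT8 replicate 2 the limma log2 fold change was 0.89 ± 0.14 for Clock (adjusted p = 0.0675) and 0.75 ± 0.25 for Npas2 (adjusted p = 0.213).

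Among the nuclear receptors of the second loop, Nr1d1 and Nr1d2 were called lower without ZT8 replicate 2. Nr1d1, which encodes the Arntl repressor REV-ERBα, had 0.385, 0.870 and 0.240 FPKM at ZT20, against 17.7, 0.292 and 16.5 FPKM at ZT8. Its paralog Nr1d2 had 5.73, 4.29 and 4.12 FPKM at ZT20, against 35.1, 3.38 and 33.8 FPKM at ZT8. For both, ZT8 replicate 2 was as low as the ZT20 livers. Without it the log2 fold change was -3.61 ± 0.19 for Nr1d1 and -2.64 ± 0.15 for Nr1d2 (limma adjusted p = 0.00398 for each). With all 6 libraries it was -2.35 ± 0.96 for Nr1d1 (adjusted p = 0.348) and -1.64 ± 0.76 for Nr1d2 (adjusted p = 0.379). Rora, the gene of an activator that binds the same element, had means of 12.2 ± 3.07 FPKM at ZT20 and 11.1 ± 0.276 FPKM at ZT8 (SD, n = 3 each), and its difference was within the spread of the ZT20 libraries.

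The D-box factors included Dbp, with the lowest log2 fold change of the called genes on the log2(FPKM + 1) scale. Dbp, a transcription factor driven directly by BMAL1, had 1.35, 1.21 and 1.98 FPKM at ZT20, against 61.9, 1.31 and 66.0 FPKM at ZT8. Its mean in ZT8 replicates 1 and 3 was 42.2-fold that of ZT20, and the log2 fold change was -4.70 ± 0.16 without ZT8 replicate 2 (limma adjusted p = 0.000783) and -3.10 ± 1.20 with it (adjusted p = 0.338). Tef, a relative of Dbp, had 16.6, 12.5 and 18.3 FPKM at ZT20, against 43.4, 18.8 and 43.2 FPKM at ZT8. Here the groups did not overlap even with all 6 libraries, though ZT8 replicate 2 was barely above the highest ZT20 value, and Tef was called lower without it (log2 fold change -1.42 ± 0.17, limma adjusted p = 0.0416). Nfil3, the repressor that competes at D-boxes, was high where these were low: 14.0, 15.2 and 16.4 FPKM at ZT20, against 4.03, 20.7 and 2.98 FPKM at ZT8. Its log2 fold change without ZT8 replicate 2 was 1.85 ± 0.14 (limma adjusted p = 0.0138). Hlf, the third activator, averaged 5.49 ± 1.40 FPKM at ZT20 and 7.57 ± 2.11 FPKM at ZT8 (SD, n = 3 each) and was not called.

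The repressors of the Per and Cry families differed among themselves. Per3, whose product is the least essential of the Per proteins for the clock, had 1.25, 1.77 and 2.03 FPKM at ZT20, against 5.69, 2.35 and 9.12 FPKM at ZT8. It was the called clock gene nearest the threshold, with a log2 fold change of -1.63 ± 0.22 and a limma adjusted p of 0.0499 without ZT8 replicate 2. Cry1 was high at ZT20, with 17.3, 9.02 and 17.3 FPKM, against 2.95, 15.3 and 2.40 FPKM at ZT8 and lay just outside it (log2 fold change 2.03 ± 0.28, adjusted p = 0.0561). Cry2 had 7.08, 6.03 and 6.47 FPKM at ZT20, against 7.17, 8.01 and 8.19 FPKM at ZT8, a log2 fold change of -0.21 ± 0.12 without ZT8 replicate 2 (limma adjusted p = 0.401). Per2 had 2.08, 1.86 and 3.24 FPKM at ZT20, against 3.56, 5.03 and 4.34 FPKM at ZT8. The groups of Per2 and Cry2 did not overlap, neither gene was called, and in both ZT8 replicate 2 kept to the ZT8 side, whereas it lay nearer to ZT20 for 16 of the 26 clock genes and for 6134 of all 11749 genes. Per1 had 5.33, 1.56 and 4.18 FPKM at ZT20, against 3.46, 1.43 and 2.03 FPKM at ZT8, so its groups overlapped. Ciart, a repressor of CLOCK and BMAL1, spread widely within ZT20, with 3.76, 0.378 and 0.882 FPKM, against 5.45, 0.411 and 4.68 FPKM at ZT8, and was not called.

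**Figure D2:**
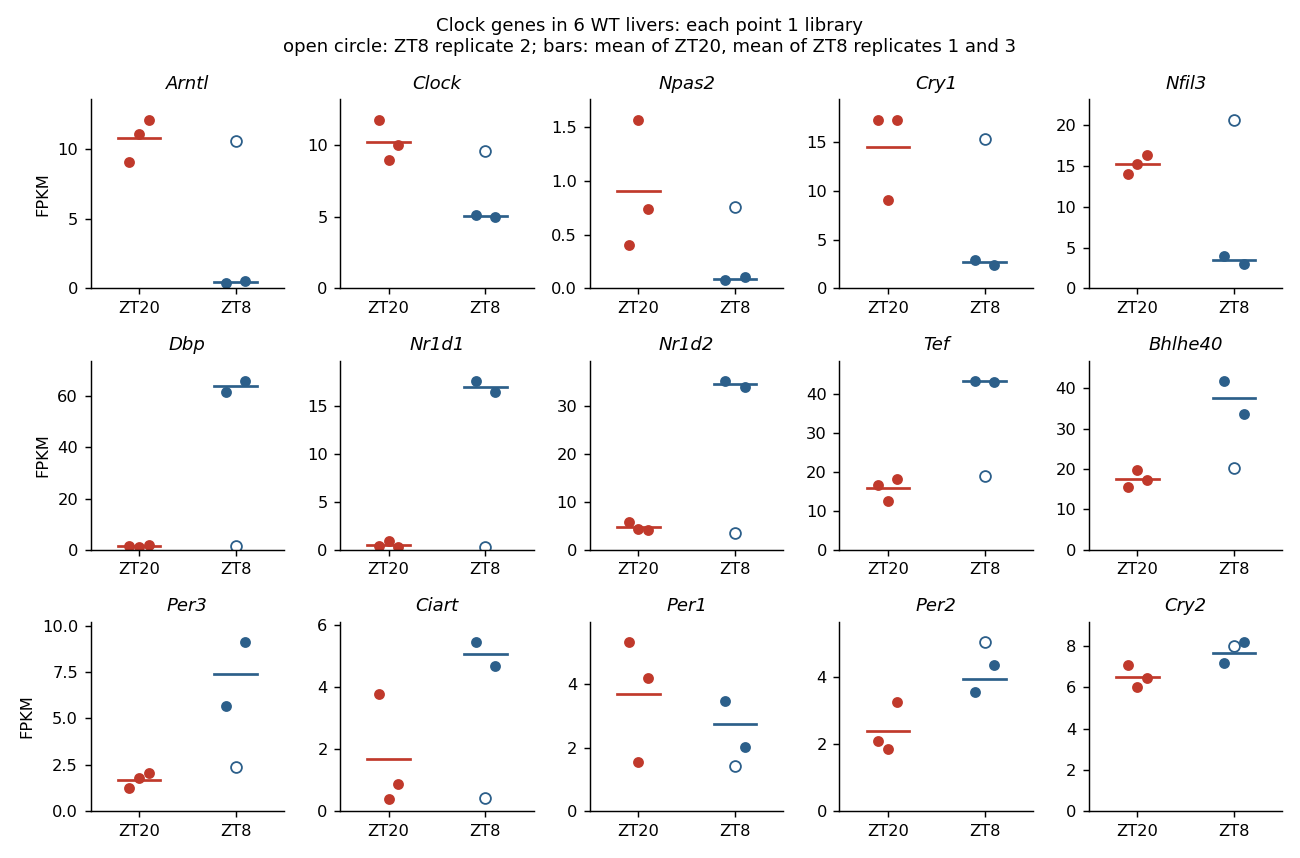
FPKM of 15 clock genes in each WT library, ZT20 left of ZT8, with bars for the mean of ZT20 and the mean of ZT8 replicates 1 and 3 and an open circle for ZT8 replicate 2. The open circle lies with ZT20 for Arntl, Dbp, Nr1d1 and Nr1d2 and with ZT8 for Per2 and Cry2.

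Of the 9 measured clock modifiers, which include the kinases and ubiquitin ligases that set the stability of Per and Cry proteins, 0 were called. Bhlhe40, a repressor at E-boxes, came closest, with 15.6, 19.8 and 17.2 FPKM at ZT20, against 41.8, 20.2 and 33.6 FPKM at ZT8 and a log2 fold change of -1.06 ± 0.15 without ZT8 replicate 2 (limma adjusted p = 0.0603). The kinase gene Csnk1d averaged 11.5 ± 0.406 FPKM at ZT20 and 12.0 ± 0.798 FPKM at ZT8 (SD, n = 3 each). Over the 5 clock lists, 26 of 28 listed genes were tested, and without ZT8 replicate 2 they gave 3 called higher, among them Arntl and Nfil3, and 5 lower (Dbp, Nr1d1, Nr1d2, Tef and Per3), with a median log2 fold change of -0.19, against -0.07 for all genes. With all 6 libraries they gave 0 calls and a median of -0.14, again against -0.07. At an unadjusted p under 0.05, 3 were higher and 7 lower, beside 391 higher and 1251 lower of all 11749 genes.

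Beyond the clock loop, genes higher at ZT20 without ZT8 replicate 2 included Slc45a3, Clpx, Ddit4, Lgalsl and Pnrc1. Slc45a3, a solute carrier, had 28.2, 13.8 and 14.3 FPKM at ZT20, against 1.68, 12.4 and 2.61 FPKM at ZT8 (log2 fold change 2.59 ± 0.32, limma adjusted p = 0.0432). Clpx, the ATPase subunit of a mitochondrial protease, had 164, 115 and 103 FPKM at ZT20, against 27.4, 85.9 and 26.1 FPKM at ZT8 (2.18 ± 0.21, adjusted p = 0.0238). Ddit4, an inhibitor of mTORC1, had 11.9, 6.89 and 9.40 FPKM at ZT20, against 1.19, 4.37 and 1.36 FPKM at ZT8 (2.16 ± 0.21, adjusted p = 0.0238). The groups of these 3 genes did not overlap even with ZT8 replicate 2, although that library was the highest of its group each time. Lgalsl, a galectin-like gene, had 14.6, 13.9 and 12.7 FPKM at ZT20, against 2.85, 13.5 and 2.80 FPKM at ZT8 (1.94 ± 0.11, adjusted p = 0.00398). Pnrc1, a nuclear receptor coactivator, had 35.2, 31.7 and 33.2 FPKM at ZT20, against 11.1, 32.8 and 13.5 FPKM at ZT8 (1.37 ± 0.12, adjusted p = 0.0227). In both genes ZT8 replicate 2 fell inside the ZT20 range. Tubb2a, a β-tubulin gene, Irf2bp2, a transcriptional corepressor, Ypel2, Loxl4, a lysyl oxidase-like enzyme gene, Tcim, Wsb1, a ubiquitin ligase subunit, and Insc were also called, with log2 fold changes of 2.36 for Tubb2a, 1.67 for Irf2bp2, 1.62 for Ypel2, 1.53 for Loxl4, 1.498 for Tcim, 1.41 for Wsb1 and 1.38 for Insc. Gldc, of the glycine cleavage system, had 59.0, 59.2 and 72.7 FPKM at ZT20, against 29.2, 57.5 and 25.9 FPKM at ZT8 (1.18 ± 0.14, adjusted p = 0.0416).

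Among genes lower at ZT20 without ZT8 replicate 2 were Arrdc3, Hsd3b5, Slc38a3, Slc5a6, Wee1 and Abcg8. Arrdc3, an arrestin-domain gene, had 14.0, 14.0 and 10.3 FPKM at ZT20, against 115, 25.8 and 85.0 FPKM at ZT8 (log2 fold change without ZT8 replicate 2 -2.87 ± 0.19, limma adjusted p = 0.00728). Hsd3b5, a steroid dehydrogenase gene that is higher in male liver, had 0.266, 0.457 and 0.140 FPKM at ZT20, against 4.90, 0.516 and 5.59 FPKM at ZT8 (-2.28 ± 0.14, adjusted p = 0.00595). For both, ZT8 replicate 2 was above every ZT20 library but much nearer to them than to the other ZT8 libraries. Slc38a3, a glutamine transporter, had 163, 233 and 201 FPKM at ZT20, against 543, 239 and 540 FPKM at ZT8 (-1.46 ± 0.17, adjusted p = 0.0416). Slc5a6, the sodium-dependent carrier of biotin and pantothenate, had 0.981, 1.13 and 1.34 FPKM at ZT20, against 5.08, 1.43 and 4.45 FPKM at ZT8 (-1.42 ± 0.12, adjusted p = 0.0195). Wee1, a kinase that restrains entry into mitosis, had 1.95, 1.70 and 1.62 FPKM at ZT20, against 5.99, 2.59 and 6.45 FPKM at ZT8 (-1.39 ± 0.11, adjusted p = 0.0166). In these 3 genes the groups did not overlap with all 6 libraries. Abcg8, which pumps sterols into bile, had 9.06, 9.96 and 11.2 FPKM at ZT20, against 26.6, 6.24 and 25.3 FPKM at ZT8 (-1.29 ± 0.12, adjusted p = 0.0238), with ZT8 replicate 2 below all ZT20 livers. The 15 lowest log2 fold changes also held Fbxo21, a ubiquitin ligase subunit (-1.65), Syt1, a synaptotagmin (-1.48), Pcsk4, a proprotein convertase (-1.47), and Rnf152, a ubiquitin ligase (-1.41). Picked after their values were seen, Aqp9, the glycerol channel of hepatocytes, and Bdh1, which interconverts ketone bodies, were called at -1.11 and -1.18.

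Some genes had groups apart with all 6 libraries. The 4 given here were picked after their values were seen, from those with the smallest p over all 6 libraries, and none passed the threshold there. Cib3, a calcium-binding protein gene, had 8.85, 8.29 and 8.62 FPKM at ZT20, against 1.05, 1.121 and 2.33 FPKM at ZT8 (log2 fold change with 6 libraries 1.98 ± 0.19, limma adjusted p = 0.128). Cyp1a2, a cytochrome P450 of drug and caffeine metabolism, had 116, 130 and 105 FPKM at ZT20, against 262, 200 and 247 FPKM at ZT8 (-1.001 ± 0.15, adjusted p = 0.314). The groups were apart in both genes, and both passed the threshold without ZT8 replicate 2, at adjusted p = 0.0382 for Cib3 and 0.0416 for Cyp1a2. Gstt2, a glutathione transferase gene, had 22.1, 21.1 and 24.7 FPKM at ZT20, against 53.4, 39.5 and 53.4 FPKM at ZT8 (-1.07 ± 0.15, adjusted p = 0.314). Fst, the activin-binding protein follistatin, had 2.03, 2.02 and 1.91 FPKM at ZT20, against 0.118, 0.862 and 0.275 FPKM at ZT8 (1.11 ± 0.19, adjusted p = 0.314). The groups of Gstt2 and Fst were apart too. Both also passed the threshold without ZT8 replicate 2, at limma adjusted p = 0.0238 for Gstt2 and 0.0189 for Fst. Reads of Gstt2 and of P450 genes may be shared with near-identical family members, since how the authors treated such reads is not given in the sources used here. Over all tested genes and 6 libraries, the groups did not overlap for 560 genes higher at ZT20 (4.77%) and 1922 lower (16.4%). Without ZT8 replicate 2 these were 1361 (11.6%) and 3349 (28.5%), and of the 62 called genes 27 stayed apart when ZT8 replicate 2 was put back.

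The WT libraries of the other 4 harvest times tested the same genes with none of these 6 libraries. The mean of ZT16 and ZT0, the times on either side of ZT20, was set against the mean of ZT4 and ZT12, those on either side of ZT8, a comparison added after the values were seen. It called 156 genes higher (1.33%) and 236 lower (2.01%) of the 11749. Of the 62 genes, 60 had the same sign there, 25 of 27 higher and 35 of 35 lower, and 37 passed the threshold in the same direction, 19 higher and 18 lower, with 0 in the opposite one. The 2 with the opposite sign were Cib3 and Mir7090, a listed miRNA gene, and for both ZT8 replicate 2 lay on the ZT8 side. The share of all tested genes with the same sign in the comparisons was not computed. At an unadjusted p under 0.05, all genes gave 707 higher and 1606 lower in the 12 libraries. Arntl, Nr1d2, Dbp and Nr1d1 had the same direction in both comparisons: the log2 difference of the 12 libraries was 1.40 ± 0.10 (SE, n = 6 against 6) for Arntl and -1.45 ± 0.10 for Nr1d2, each with a limma adjusted p of 3.85e-05. It was -1.99 ± 0.16 for Dbp (adjusted p = 0.000118) and -2.02 ± 0.19 for Nr1d1 (adjusted p = 0.000334). Cry1 and Clock, not called between ZT20 and ZT8, passed here, at 1.125 ± 0.13 (adjusted p = 0.00147) and 0.51 ± 0.07 (adjusted p = 0.00315). Per2 and Cry2, lower at ZT20 by value and not called, had differences of 0.10 and 0.06 here, the opposite sign, and neither passed. For Cry2 the difference was within its standard error, at 0.06 ± 0.08 (limma adjusted p = 0.751). Its means were 8.10 FPKM at ZT16 and 3.97 FPKM at ZT0, which this comparison averages. Per3 did not pass, at -0.11 ± 0.10 (adjusted p = 0.619), nor did Hsd3b5, at -0.58 ± 0.61 (adjusted p = 0.648). Of the genes picked above for their p over 6 libraries, Gstt2 passed here, at -0.59 ± 0.11 (limma adjusted p = 0.0180). Cyp1a2, at -0.06 ± 0.24 (adjusted p = 0.918), and Fst, at 0.26 ± 0.15 (adjusted p = 0.372), did not.

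**Figure D3:**
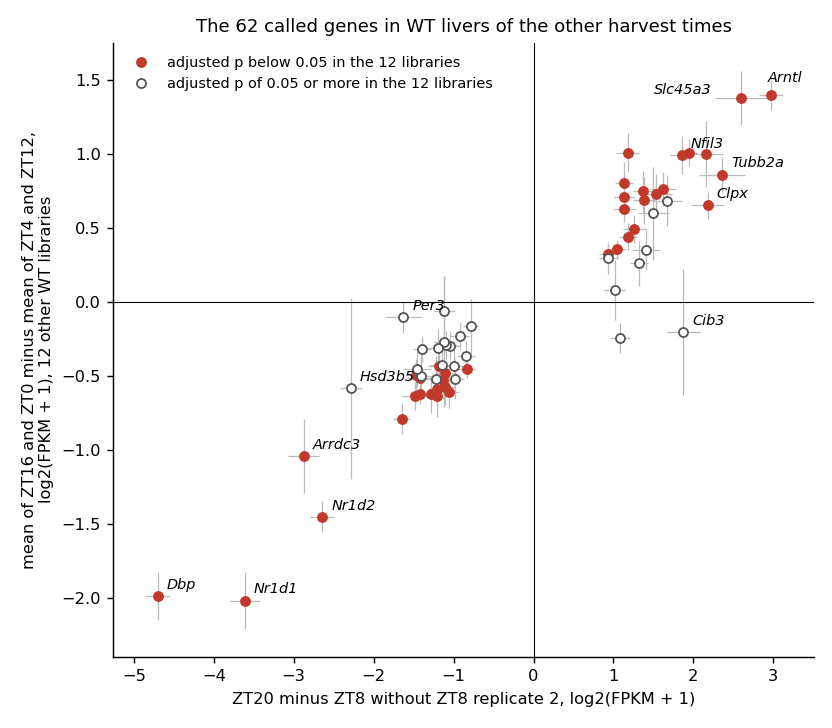
Log2 difference of the 62 called genes between ZT20 and ZT8 without ZT8 replicate 2 (horizontal) and between the mean of ZT16 and ZT0 and the mean of ZT4 and ZT12 in the 12 other WT libraries (vertical), with standard errors from limma. Filled points passed the threshold in the 12 libraries, 37 of 62, and 60 points lie on the same side of 0 on both axes.

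Across the day, the means of Arntl, Dbp and Per3 placed ZT20 and ZT8 near their extremes, which calling genes by this difference favours. Other called genes peaked at other times. Gstt2 averaged 71.1 ± 8.58 FPKM at ZT12, against 53.4 FPKM in ZT8 replicates 1 and 3. Loxl4 averaged 7.68 ± 0.827 FPKM at ZT0, against 4.14 FPKM at ZT20. Arntl averaged 11.6 ± 0.376 FPKM at ZT0, 6.57 ± 1.67 at ZT4, 0.488 ± 0.106 in ZT8 replicates 1 and 3, 0.437 ± 0.0764 at ZT12, 4.89 ± 0.602 at ZT16 and 10.7 ± 1.53 at ZT20 (SD, n = 3, and n = 2 at ZT8). ZT8 and ZT12 did not differ beyond their spread, nor did ZT20 and ZT0. Dbp averaged 0.522 ± 0.210 FPKM at ZT0, 3.59 ± 1.78 at ZT4, 63.9 ± 2.93 in ZT8 replicates 1 and 3, 39.5 ± 7.89 at ZT12, 6.31 ± 0.439 at ZT16 and 1.52 ± 0.412 at ZT20. Its lowest mean was that of ZT0, followed by ZT20. Per3 averaged 0.859 ± 0.117 FPKM at ZT0, 0.916 ± 0.442 at ZT4, 7.41 ± 2.43 in ZT8 replicates 1 and 3, 6.61 ± 0.833 at ZT12, 5.67 ± 0.690 at ZT16 and 1.68 ± 0.399 at ZT20. Its high levels thus spanned ZT8 to ZT16, with ZT16 on the side of ZT20 in the comparison of the other times.

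The same harvest times in KO livers asked whether these differences were also found without BMAL1. KO livers, set at ZT20 against ZT8 on their own, gave 0 called genes and 1197 with an unadjusted p under 0.05. Arntl itself had 8.06 ± 0.635 FPKM at ZT20 and 7.13 ± 0.341 FPKM at ZT8 in KO (SD, n = 3 each), so a value for the whole gene did not check the KO label. The difference of the differences, WT minus KO, called 0 genes with all libraries (0%; 1768 at an unadjusted p under 0.05) and 41 without WT ZT8 replicate 2 (0.349%). In 40 of the 41 the WT difference was the larger in size. Selecting genes by a large interaction, where KO alone gave 0 calls, favours that count, and its share over all genes was not computed. Of the 26 clock genes, 9 were among the 41. WT ZT8 replicate 2 was left out for its clock genes, so their p-values in this paragraph are conditional on that choice. With that library in the fit, the limma interaction was -2.88 ± 1.34 for Dbp (adjusted p = 0.340) and 1.83 ± 0.83 for Arntl (adjusted p = 0.330). The interactions that follow are without it. Dbp had 1.52 ± 0.412 FPKM at ZT20 and 63.9 ± 2.93 FPKM in ZT8 replicates 1 and 3 in WT, against 1.26 ± 0.0720 FPKM at ZT20 and 1.63 ± 0.0477 FPKM at ZT8 in KO. Its KO means were close to the WT mean of ZT20, and the interaction was -4.48 ± 0.17 (limma adjusted p = 5.09e-07). The Arntl levels of KO given above lay between those of WT ZT20 and ZT8, nearer to ZT20, with an interaction of 2.82 ± 0.17 (adjusted p = 3.10e-05). Cry1 had 14.5 ± 4.77 FPKM at ZT20 and 2.67 ± 0.390 FPKM in ZT8 replicates 1 and 3 in WT, against 19.1 ± 1.25 FPKM at ZT20 and 18.6 ± 1.15 FPKM at ZT8 in KO, and its interaction of 2.00 ± 0.30 passed the threshold (adjusted p = 0.0215). Outside the clock lists, Clpx (2.499, adjusted p = 0.00120), Lgalsl (1.88, adjusted p = 0.000801), Wee1 (-1.53, adjusted p = 0.00125), Slc5a6 (-1.45, adjusted p = 0.00303) and Slc45a3 (2.82, adjusted p = 0.00783) also differed between the genotypes. The count ranged from 13 to 124 when 1 more of the 11 libraries was left out, lowest without WT ZT8 replicate 1 and highest without KO ZT8 replicate 2, and of Arntl, Cry1, Dbp, Nfil3, Nr1d1, Nr1d2, Per3 and Tef between 6 and 8 remained called each time.

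Liver-RE asked whether the differences were those of WT when BMAL1 was restored in the liver alone. The interaction WT minus Liver-RE called 0 genes with all libraries (0%; 753 at an unadjusted p under 0.05) and 0 without WT ZT8 replicate 2 (0%; 924), where the smallest adjusted p was 0.0529. A p above the threshold does not show that the genotypes are alike, and the Liver-RE livers spread widely. Nr1d1 had 4.53 ± 5.47 FPKM at ZT20 and 4.10 ± 4.38 FPKM at ZT8 in Liver-RE (SD, n = 3 each), where WT had 0.498 ± 0.330 FPKM at ZT20 and 17.1 ± 0.847 FPKM in ZT8 replicates 1 and 3. The WT minus Liver-RE difference of Nr1d1 was -3.61, with an adjusted p of 0.405. On their own, Liver-RE livers had 1 gene past the threshold, Clpx, with a ZT20 minus ZT8 log2 difference of 2.17 (limma adjusted p = 0.0100), beside 2.18 in WT without ZT8 replicate 2. Dbp differed by -3.11 in Liver-RE (adjusted p = 0.0950) and Arntl by 1.85 (adjusted p = 0.0950).

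**Figure D4:**
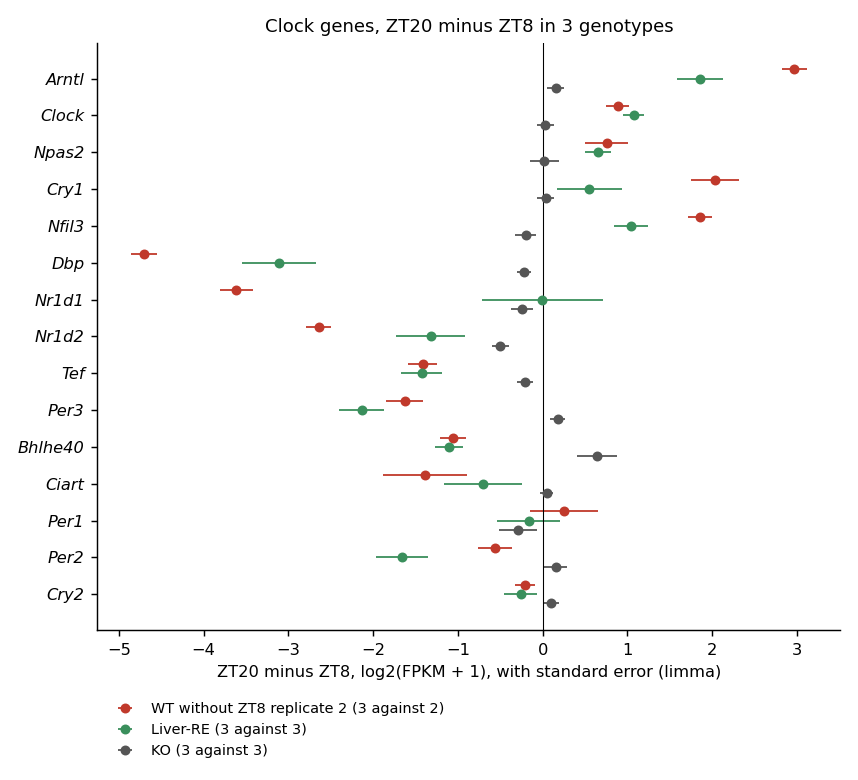
ZT20 minus ZT8 in log2(FPKM + 1) for 15 clock genes in WT without ZT8 replicate 2, Liver-RE and KO, as points with the standard error from limma. KO points lie near 0 for Arntl (0.15) and Dbp (-0.22), while WT lies at 2.97 and -4.70.

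Lists of other pathways gave few calls. The glucocorticoid-responsive list, genes known to be induced by adrenal steroid hormone, had the highest median log2 fold change of the lists with 10 or more tested genes: 1.26 without ZT8 replicate 2 and 1.33 with it, against -0.07 for all genes in both. Of its 15 tested genes 1 was called (Ddit4), 7 were higher and 0 lower at an unadjusted p under 0.05, and 9 had groups apart and higher at ZT20, where 11.6% of all genes did. With all 6 libraries 0 were called, and 5 had groups apart, where 4.77% of all genes did. Sgk1, a kinase of sodium handling, had 13.2, 10.7 and 18.7 FPKM at ZT20, against 4.07, 6.601 and 4.28 FPKM at ZT8 (log2 fold change without ZT8 replicate 2 1.52 ± 0.22, limma adjusted p = 0.0603). Dusp1, a MAP kinase phosphatase, had 22.6, 7.24 and 9.99 FPKM at ZT20, against 2.66, 3.78 and 2.17 FPKM at ZT8 (1.92 ± 0.42, adjusted p = 0.125). In both genes the groups did not overlap with all 6 libraries. Tat, tyrosine aminotransferase, had 1409, 431 and 769 FPKM at ZT20, against 238, 465 and 209 FPKM at ZT8 (log2 fold change 1.79, adjusted p = 0.149), and its groups overlapped through ZT8 replicate 2. ZT20 replicate 1 was highest for Dusp1 and Tat, and the part of that library in the list's median was not tested.

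**Figure D5:**
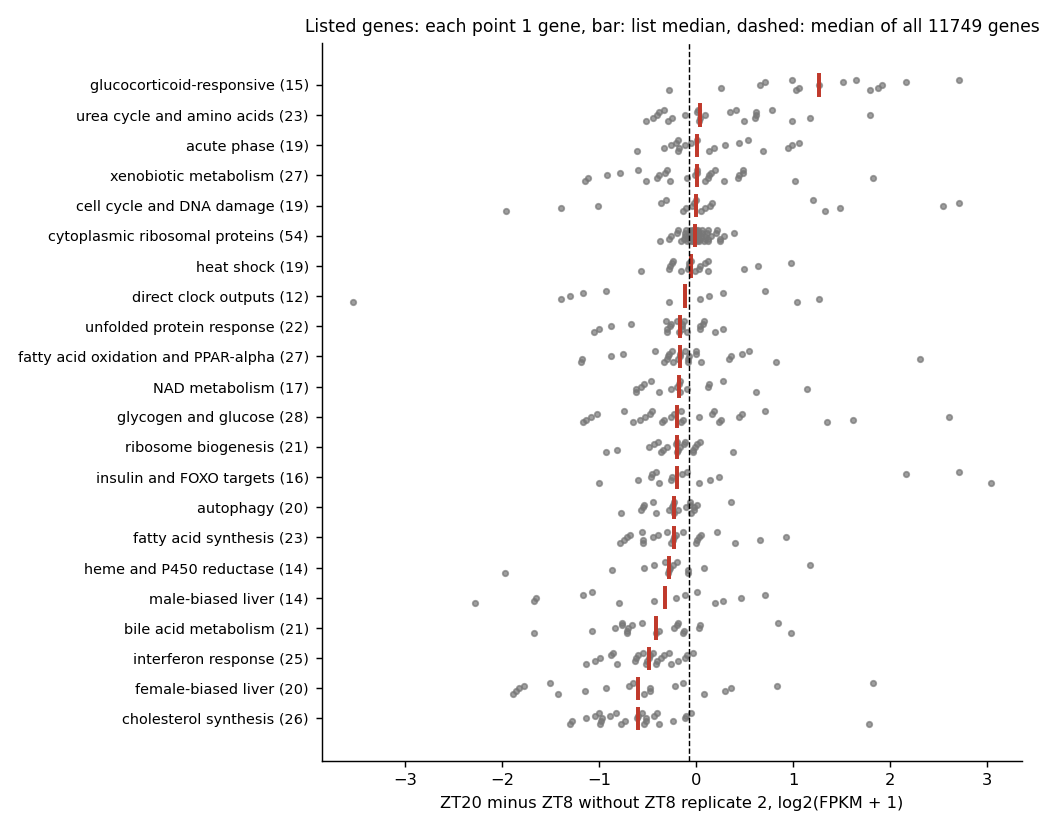
Log2 fold change, ZT20 minus ZT8 without ZT8 replicate 2, of each tested gene of 22 lists with 10 or more tested genes, each list's number of genes in brackets, with a bar for the list median and a dashed line at the median of all genes (-0.07). The glucocorticoid-responsive median of 1.26 is the highest, and the cholesterol synthesis median of -0.60 the lowest.

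Sugar and amino acid metabolism gave few calls. Of 28 glycogen and glucose genes 0 passed, with 3 higher and 9 lower at an unadjusted p under 0.05, beside 596 higher and 1567 lower of all 11749, and a median of -0.20 against -0.07 for all genes. G6pc, the last enzyme of glucose release, had 284, 104 and 129 FPKM at ZT20, against 23.9, 73.8 and 25.7 FPKM at ZT8 (log2 fold change without ZT8 replicate 2 2.61 ± 0.41, limma adjusted p = 0.0701). Ppp1r3b, which targets a phosphatase to glycogen, had 83.3, 136 and 98.8 FPKM at ZT20, against 42.7, 130 and 25.7 FPKM at ZT8 (1.62 ± 0.28, adjusted p = 0.0874). ZT8 replicate 2 lay inside the ZT20 range for Ppp1r3b, and for G6pc between the ZT20 values and the other ZT8 libraries. Ugp2, which makes the UDP-glucose used for glycogen, had 79.0, 117 and 96.0 FPKM at ZT20, against 211, 99.8 and 182 FPKM at ZT8 (-1.02 ± 0.19, adjusted p = 0.0995), and passed in the 12 other libraries at -0.75 (adjusted p = 0.00593). Of 23 urea cycle and amino acid genes 1 was called, Gldc, with a list median of 0.04.

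Lipid lists gave medians below 0 and 1 called gene. Of 26 cholesterol synthesis genes 0 were called, 1 higher and 1 lower at an unadjusted p under 0.05, and the median was -0.60 without ZT8 replicate 2 and -0.67 with it, against -0.07 for all genes. Stard4, a sterol carrier, had 11.3, 21.0 and 16.3 FPKM at ZT20, against 38.7, 26.5 and 41.0 FPKM at ZT8 (log2 fold change without ZT8 replicate 2 -1.28 ± 0.24, limma adjusted p = 0.102). Insig2, which restrains the pathway, went the other way with 197, 53.9 and 62.9 FPKM at ZT20, against 26.8, 51.7 and 22.9 FPKM at ZT8 (1.78 ± 0.54, adjusted p = 0.189). The groups did not overlap for either gene, and both passed in the 12 other libraries, Stard4 at -0.59 (adjusted p = 0.0237) and Insig2 at 0.84 (adjusted p = 0.0218). Fatty acid synthesis had 0 calls of 23 genes and a median of -0.23. Fatty acid oxidation had 1 of 27, Bdh1, lower at ZT20, and a median of -0.16. Of 21 bile acid genes 0 were called, 9 were lower at an unadjusted p under 0.05, and 13 had groups apart and lower at ZT20, where 28.5% of all genes did. Slco1b2, a hepatocyte uptake carrier, had 327, 338 and 319 FPKM at ZT20, against 607, 294 and 564 FPKM at ZT8 (-0.83 ± 0.12, adjusted p = 0.0562).

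Of 25 interferon response genes 0 were called, 0 were higher and 9 lower at an unadjusted p under 0.05, and 14 had groups apart and lower at ZT20 without ZT8 replicate 2, beside 28.5% of all genes. The list's median was -0.49, against -0.07 for all genes. In the 12 other WT libraries that median was -0.10, against -0.04 for all genes. Ifit1, an interferon-induced RNA-binding protein gene, had 1.96, 4.32 and 3.07 FPKM at ZT20, against 8.02, 5.86 and 6.54 FPKM at ZT8 (log2 fold change without ZT8 replicate 2 -1.04 ± 0.25, limma adjusted p = 0.132), and in the 12 other libraries -0.23 (adjusted p = 0.350). Its groups were apart with all 6 libraries. Kupffer cell and macrophage markers summed to 388 to 504 FPKM at ZT20 and 385 to 413 FPKM at ZT8. Of these 14 markers 0 were called. With all 6 libraries, 5 had groups apart and higher at ZT20, where 4.77% of all genes did, and 0 had groups apart and lower. Drug metabolism had 1 call of 27 genes, Cyp1a2, and heme synthesis 0 of 14. Alas1, the first enzyme of the heme pathway, had 76.4, 20.1 and 54.4 FPKM at ZT20, against 240, 63.4 and 127 FPKM at ZT8 (-1.97 ± 0.57, adjusted p = 0.180). For Alas1, ZT8 replicate 2 lay inside the ZT20 range.

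Among stress and growth lists, heat shock had 0 calls of 19 genes, the unfolded protein response 0 of 22, cytoplasmic ribosomal proteins 0 of 54 and ribosome biogenesis 0 of 21, with medians of -0.05, -0.16, -0.02 and -0.20. Ribosome biogenesis had 14 of 21 genes with groups apart and lower at ZT20, where 28.5% of all genes did. Hsp90aa1, a cytosolic chaperone, had 12.9, 14.8 and 13.6 FPKM at ZT20, against 9.54, 29.2 and 7.50 FPKM at ZT8, so ZT8 replicate 2 was the highest of all 6. Xbp1, a transcription factor of the unfolded protein response, had 28.7, 43.9 and 43.7 FPKM at ZT20, against 75.4, 68.2 and 85.3 FPKM at ZT8, and there ZT8 replicate 2 stayed with its group (log2 fold change without it -1.06 ± 0.21, limma adjusted p = 0.109). Ccnd1, the cyclin D1 gene, had 5.50, 10.9 and 5.59 FPKM at ZT20, against 28.6, 15.2 and 31.9 FPKM at ZT8 (-1.97 ± 0.28, adjusted p = 0.0562), and passed in the 12 other libraries at -0.95 (adjusted p = 0.00560). Female-biased genes had 0 calls of 20 and a median of -0.60, and male-biased genes 1 of 14, Hsd3b5, and a median of -0.32. In the 12 other WT libraries these medians were 0.04 for female-biased and -0.12 for male-biased genes, against -0.04 for all genes. The cold-inducible genes Cirbp and Rbm3 had log2 fold changes of 0.53 and 0.36 (adjusted p = 0.385 and 0.314). The 12 direct clock outputs gave 1 gene higher, the ubiquitin ligase gene Lonrf3, and 1 lower, Wee1, which was also the 1 call of 19 cell cycle genes. Of 16 insulin and FOXO targets 1 was called, Ddit4, which the glucocorticoid-responsive list also holds, and NAD metabolism (17 genes), autophagy (20 genes) and the acute phase response (19 genes) gave 0 calls each.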

How the data were processed

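RNA from whole liver was sequenced after ribosomal RNA depletion with a strand-marking kit, single-end, per the labels' protocols. Per the submitters' processing notes, CASAVA 1.8.2 was run against mm10. No source used here names the aligner or the gene models. The authors deposited 1 table of FPKM values per gene and library, and its columns match the sample labels. The unit was not written in it and was inferred from the values: low values times gene length fell on repeated steps for 5.51% to 8.33% of 3223 genes, against 1.59% to 2.16% without the length, and those steps gave the depth. Depth enters no test, and no counts were used.

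Each gene with a mean of at least 0.5 FPKM over the 6 WT ZT20 and ZT8 libraries (11749, with 6330 below) was tested on log2(FPKM + 1), a scale that understates the change of low genes, with limma 3.58.1 in R 4.3.3 and a mean-variance trend. P-values were adjusted over all tested genes by Benjamini and Hochberg, and a gene was called at an adjusted p below 0.05. The tests were two-sided. The labels do not say whether replicates are separate litters or days, and p-values measure only the spread between these libraries. Differences between genotypes were interaction terms. The alternatives were another pseudocount, filter, scaling, variance estimate or replicate block, and leaving out each library. The tests were checked on simulated data. Named genes were the clock genes, the 15 called genes with the highest and lowest log2 fold change of those averaging at least 1 FPKM in the higher group, and up to 4 members with the smallest p of each list. Those members are described in part, and 3 genes that these rules or the lists hold are not reported here. The comparison, lists and named genes were chosen with earlier results of these data known. Same-numbered libraries deviated from their group means with correlations of 0.094, 0.114 and -0.0661, so numbers were not taken as pairs. Whether reads of near-identical genes were shared is not given in the sources used here. Tables were handled with Python 3.11.15, pandas 2.3.3 and numpy 2.4.6, and figures drawn with matplotlib 3.10.9.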

Additional observations from a re-analysis of the deposited data

Results flagged for a closer look

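For 8 clock genes the ZT20 minus ZT8 log2 difference differed between WT without ZT8 replicate 2 and KO, by limma's interaction term. The difference, WT minus KO, was 2.816 for Arntl, 1.996 for Cry1 and 2.053 for Nfil3, with adjusted p values of 3.098e-05, 0.02152 and 0.0009221. It was -4.482 for Dbp, -3.368 for Nr1d1, -2.144 for Nr1d2, -1.806 for Per3 and -1.206 for Tef, with adjusted p values of 5.092e-07, 0.0001389, 0.0004176, 0.007145 and 0.02152. With WT ZT8 replicate 2 in the fit, none of the 8 passed. That library was left out for its clock genes, so these p-values are conditional on the choice and are given as a description.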

How the results depend on the processing

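With all 6 libraries the counts of called genes stayed at 0 under a pseudocount of 0.1, no filter, a filter of 2 FPKM, quantile normalization, rescaling without the 20 highest genes, the replicate block and limma's robust option. With the spread taken from all 18 WT libraries they were 21 higher and 96 lower. Leaving out 1 library gave 0 to 27 higher and 0 to 35 lower, the highest without ZT8 replicate 2. Without ZT8 replicate 2 (27 higher, 35 lower), no filter gave 2 and 6, the replicate block 3 and 7, rescaling without the 20 highest genes 34 and 17, and the spread from 17 WT libraries 226 and 541. Leaving out 1 more library gave 0 to 229 higher and 1 to 267 lower, the highest without ZT20 replicate 1. The WT minus KO count was 41 without WT ZT8 replicate 2 and 0 with it, and ranged over 13 to 124 with 1 more library left out. WT minus Liver-RE gave 0 under every alternative run. The median of all genes, -0.073, was -0.007 with quantile normalization and 0.029 without the 20 highest genes. The log2 fold change changed sign for Btrc (0.001465) and Csnk1d (0.06644) without the 20 highest genes, and for Csnk1d (0.06943) with quantile normalization. Over libraries left out in turn it ranged from -0.2776 to 0.6365 for Hsp90aa1, -0.1219 to 0.4895 for Hspa4l, -0.1285 to 0.9769 for Hspb1, -0.07502 to 0.2378 for Rora, -0.2842 to 0.03807 for Rpl26, -0.01732 to 0.248 for Timeless and -0.9295 to 0.008941 for Upp2. Of 1782 values of 128 named genes under the alternatives, 1717 kept their direction and side of the threshold, 53 passed it and 12 changed sign. The reference was the fit with all 6 libraries, which called 0 genes. Keeping the side thus meant staying uncalled, and the number does not describe the calls made without ZT8 replicate 2. Causes were not tested, and no detection limit was computed.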
